A study of Drosophila melanogaster with 12 samples.

Results

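The subjective warm hours and the subjective cold hours of a day at constant 25 °C were compared in fly heads, after entrainment to a temperature cycle and with no change of temperature between the groups. The comparison used 6 of the 12 arrays in the series. AA14, AA18 and AA22 formed the subjective thermophase and AA2, AA6 and AA10 the subjective cryophase, where AA stands for ambient/ambient and the number is the hour of the day. All the flies were *y w*, a laboratory strain of *Drosophila melanogaster* that carries body- and eye-colour markers, kept in constant darkness. They had been entrained to 12 h at 18 °C followed by 12 h at 25 °C, and the AA day directly followed the last of these cycles, on which the other 6 arrays were collected every 4 h (the cold/ambient or CA day, with a cryophase of CA2, CA6 and CA10 at 18 °C and a thermophase of CA14, CA18 and CA22 at 25 °C). Every array carried RNA from a pool of heads, sieved from frozen flies, and every hour of a day had 1 array. A group of 3 is therefore 3 successive hours, and its spread includes any difference between those hours.

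Flies set their circadian clock by temperature cycles as well as by light. The clock is a feedback loop in which CLK and CYC activate *per* and *tim*, whose proteins then repress CLK and CYC. A second loop through *vri* and *Pdp1* shapes the expression of *Clk*. Once the cycle stops, as on the AA day, the former warm and cold hours share a temperature, and the clock runs on. The head holds the brain, the compound eyes, the antennae, muscle, the fat body and cuticle, and the gut, the reproductive tract and the abdominal oenocytes lie outside it.

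Values are log2 expression values made by robust multi-array averaging (RMA), and 11137 of 13966 non-control probe sets passed the filter on signal. Change here means the mean of the 3 thermophase arrays minus the mean of the 3 cryophase arrays, so 1 unit is a doubling. The median standard error of a change was 0.11, estimated from the spread within the 4 groups of all 12 arrays. Medians of the 12 arrays lay between 4.35 and 4.39, and pairs of AA arrays correlated at 0.971 to 0.991 over the tested probe sets. The first principal component of the AA arrays held 47.3% of their variance and placed AA2, AA18, AA10, AA6, AA14 and AA22 in that order, so it did not separate the groups. The difference between the 3′ and 5′ probe sets of the eIF-4a control ran in nearly the same order. In those arrays it was 0.956, 1.48, 1.54, 2.40, 2.39 and 3.08. Its part in the component was not tested. Neurons, photoreceptors, glia, muscle and fat body were each represented by some of their markers, among them *trp* (8.56 to 9.19 over the AA arrays), *Gs2* (9.17 to 9.82), *Mlc2* (9.68 to 10.48), *Lsp2* (7.69 to 9.03) and *elav* (4.13 to 5.71). Other markers were weak. The muscle marker *Act88F* did not pass the filter (2.72 to 2.90), and the neuronal marker *Syn* ran from 2.52 to 3.93. Transcripts of the gut and of the male reproductive tract were also measured, and they stood higher in the subjective thermophase by values given with those lists.

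No transcript passed the test between the subjective phases. Limma called 0 of 11137 probe sets at an adjusted p below 0.05 (0%), and the smallest adjusted p was 0.883. At an unadjusted p below 0.05 it gave 207 higher in the subjective thermophase (1.86%) and 393 lower (3.53%). These counts depended on single arrays. Without AA18 there were 408 higher and 811 lower, and without AA14 there were 117 and 138. The 3 thermophase arrays lay wholly above the 3 cryophase arrays for 538 probe sets (4.83%) and wholly below for 433 (3.89%). With 3 arrays a side such a separation often arises by chance, so by itself it is no evidence of a difference. Most differences were small: the median size of a change was 0.079, 195 probe sets differed by more than 0.5, and 24 by more than 1. Over all tested probe sets 5845 were higher and 5283 lower, with a median change of 0.0073. The transcripts named here had limma adjusted p-values of 0.883 or more, so each is given by its values, and higher and lower describe those values only.

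The 32 gene lists examined differed in how far their members leaned to one side. Splicing factors, other RNA-binding proteins, muscle, basement membrane, ion channel and phototransduction genes leaned lower in the subjective thermophase. Digestive enzymes, male reproductive tract transcripts, antimicrobial peptides and cytosolic ribosomal proteins leaned higher. The lists were chosen with earlier results of these data known, and each is described by its counts and its median beside those of the 8808 genes tested, of which 54.5% were higher, with a median of 0.013. Counts cover the genes that passed the filter on signal. These were most of the genes with a probe set in every list, with the lowest shares for male reproductive tract transcripts (13 of 25), odorant-binding proteins (26 of 37), the takeout family (14 of 19) and glutathione and UDP-glycosyl transferases (52 of 67).

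**Figure D1:**
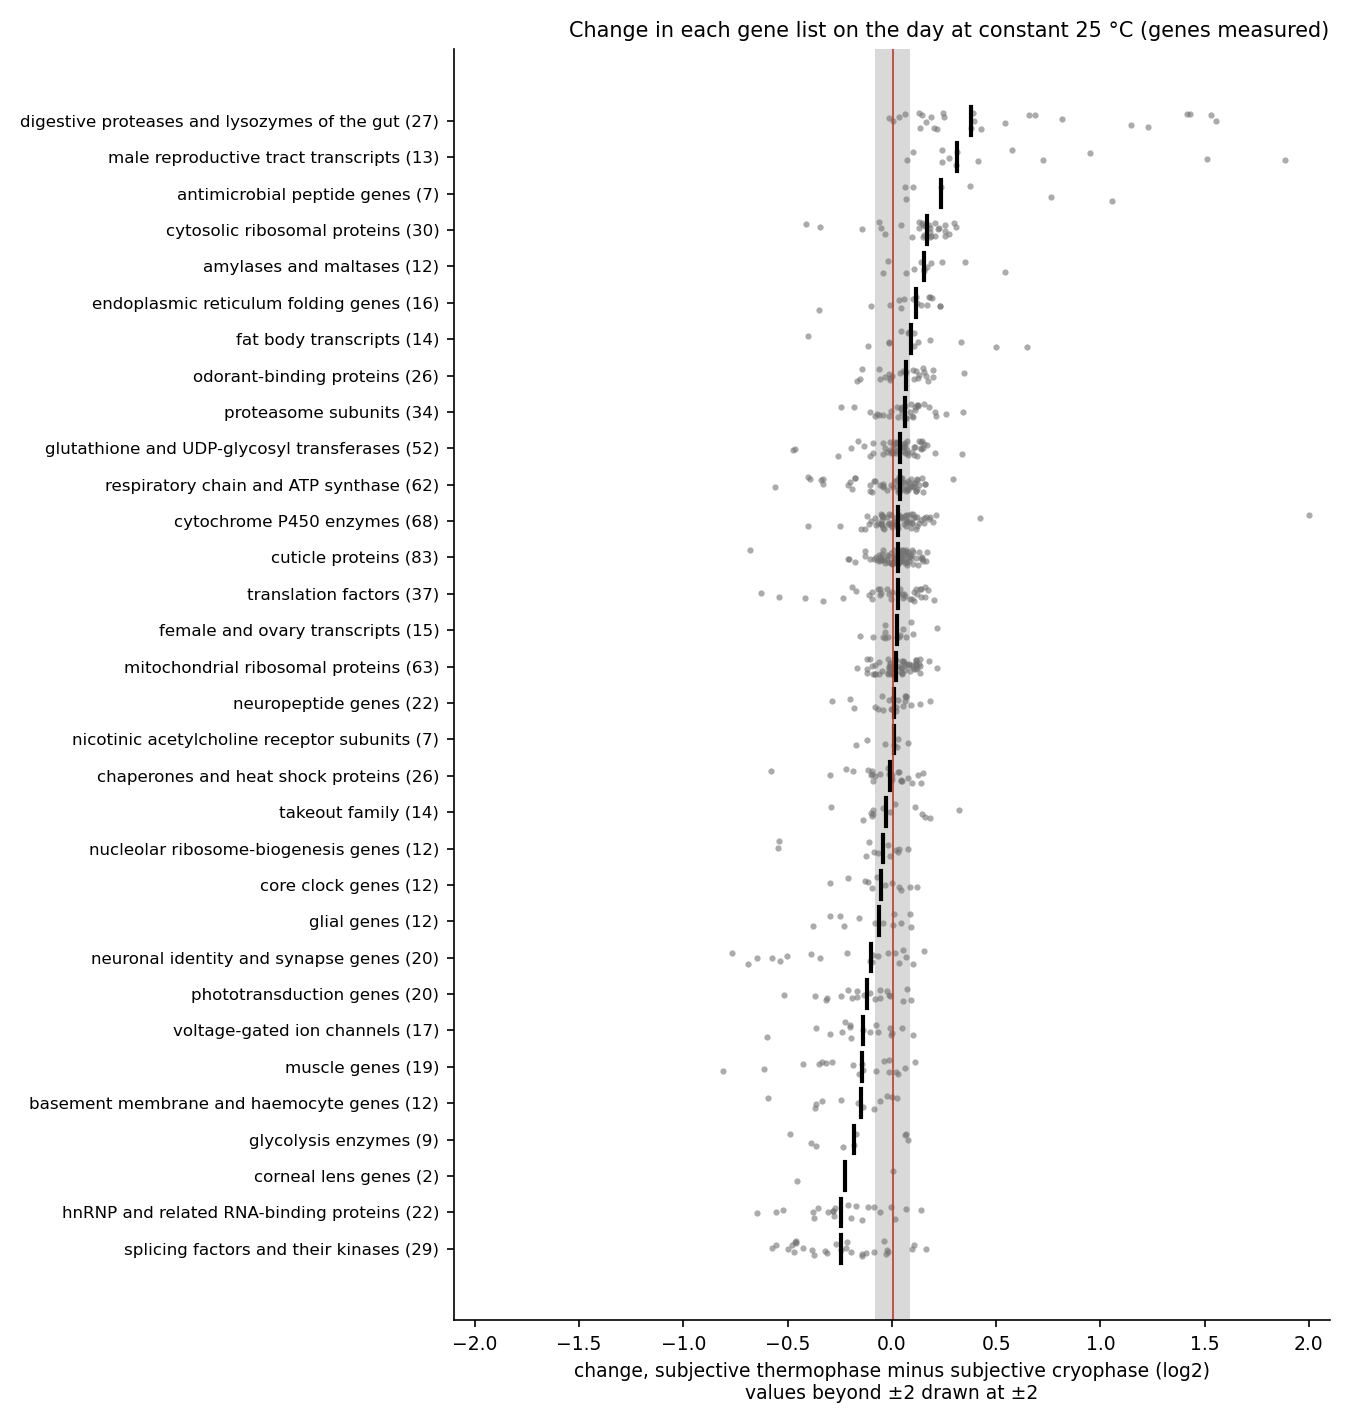
Change of every measured member of 32 gene lists on the AA day (horizontal axis, log2, subjective thermophase minus subjective cryophase), 1 point per gene, with the list's median as a black bar, the median over all tested probe sets as a red line and their quartiles as a shaded band. Medians run from -0.25 for splicing factors to 0.38 for gut proteases and lysozymes, and *Cyp4g1* (2.78) is drawn at the edge of the axis.

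Pre-mRNA splicing factors and the kinases that phosphorylate them were lower in the subjective thermophase for 26 of 29 measured genes, with a median of -0.25. Of these 29, 12 had an unadjusted limma p below 0.05, all of them lower, against 3.53% of all probe sets, and 11 lay wholly below, against 3.89%. *SRPK*, a kinase of serine/arginine-rich (SR) splicing factors, stood at 5.17, 5.46 and 5.09 in AA2, AA6 and AA10 and at 4.18, 5.08 and 4.74 in AA14, AA18 and AA22, a change of -0.57 (SE 0.18). All 3 warm-hour values lay below the cold-hour values, AA18 only just, and another *SRPK* probe set gave -0.04 (SE 0.11). *Doa*, a kinase of the same proteins, read 5.81, 5.79 and 6.01 and then 5.13, 5.78 and 5.32, a change of -0.46 (SE 0.17). The gene of the poly-U binding factor *hfp* read 5.62, 5.78 and 5.75 and then 5.22, 5.55 and 4.99, a change of -0.46 (SE 0.17). In both genes AA18 was the warm hour closest to the cold ones. *snRNP-U1-70K*, a protein of the U1 particle that recognises the 5′ splice site, gave -0.43 (SE 0.16). *Sf3b3*, a subunit of the U2 particle's SF3b complex, gave -0.32 (SE 0.11) from 3.97, 4.00 and 4.02 to 3.43, 3.71 and 3.88. Among the SR proteins *SC35* gave -0.46 (SE 0.19), *B52* -0.50 (SE 0.21) and *SF2* -0.38 (SE 0.20), and *B52* overlapped between the groups. The genes that were higher were *crn* (0.10), *Sf3a2* (0.11) and *SmD2* (0.16). The list's median stayed between -0.32 and -0.21 with any AA array left out.

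Heterogeneous nuclear ribonucleoproteins and related RNA-binding proteins gave a similar picture, with 19 of 22 lower and a median of -0.24. Here 5 were lower at an unadjusted p below 0.05, against 3.53% of all probe sets, and 3 lay wholly below, against 3.89%. *elav*, which encodes a neuronal RNA-binding protein, read 4.79, 5.71 and 5.32 in the cold hours and 4.13, 4.98 and 4.77 in the warm hours, a change of -0.65 (SE 0.25). *Hrb27C*, an hnRNP gene, read 5.45, 5.40 and 5.60 and then 4.72, 5.44 and 4.73, a change of -0.52 (SE 0.21). In both the groups overlapped, since AA18 lay within the cold-hour range. *Caper*, a gene related to the splicing factor U2AF, had 7.15, 7.29 and 7.25 against 6.77, 7.03 and 6.75, without overlap, a change of -0.38 (SE 0.16). *mub* gave -0.28 (SE 0.12), and *glo* was the highest at 0.14. Averaged over its members, the splicing list lay 0.058 to 0.20 above its 6-array mean in the cold hours and between -0.21 and 0.0040 of it in the warm hours. The hnRNP list overlapped, from -0.0090 to 0.21 in the cold hours and from -0.24 to 0.018 in the warm hours.

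**Figure D2:**
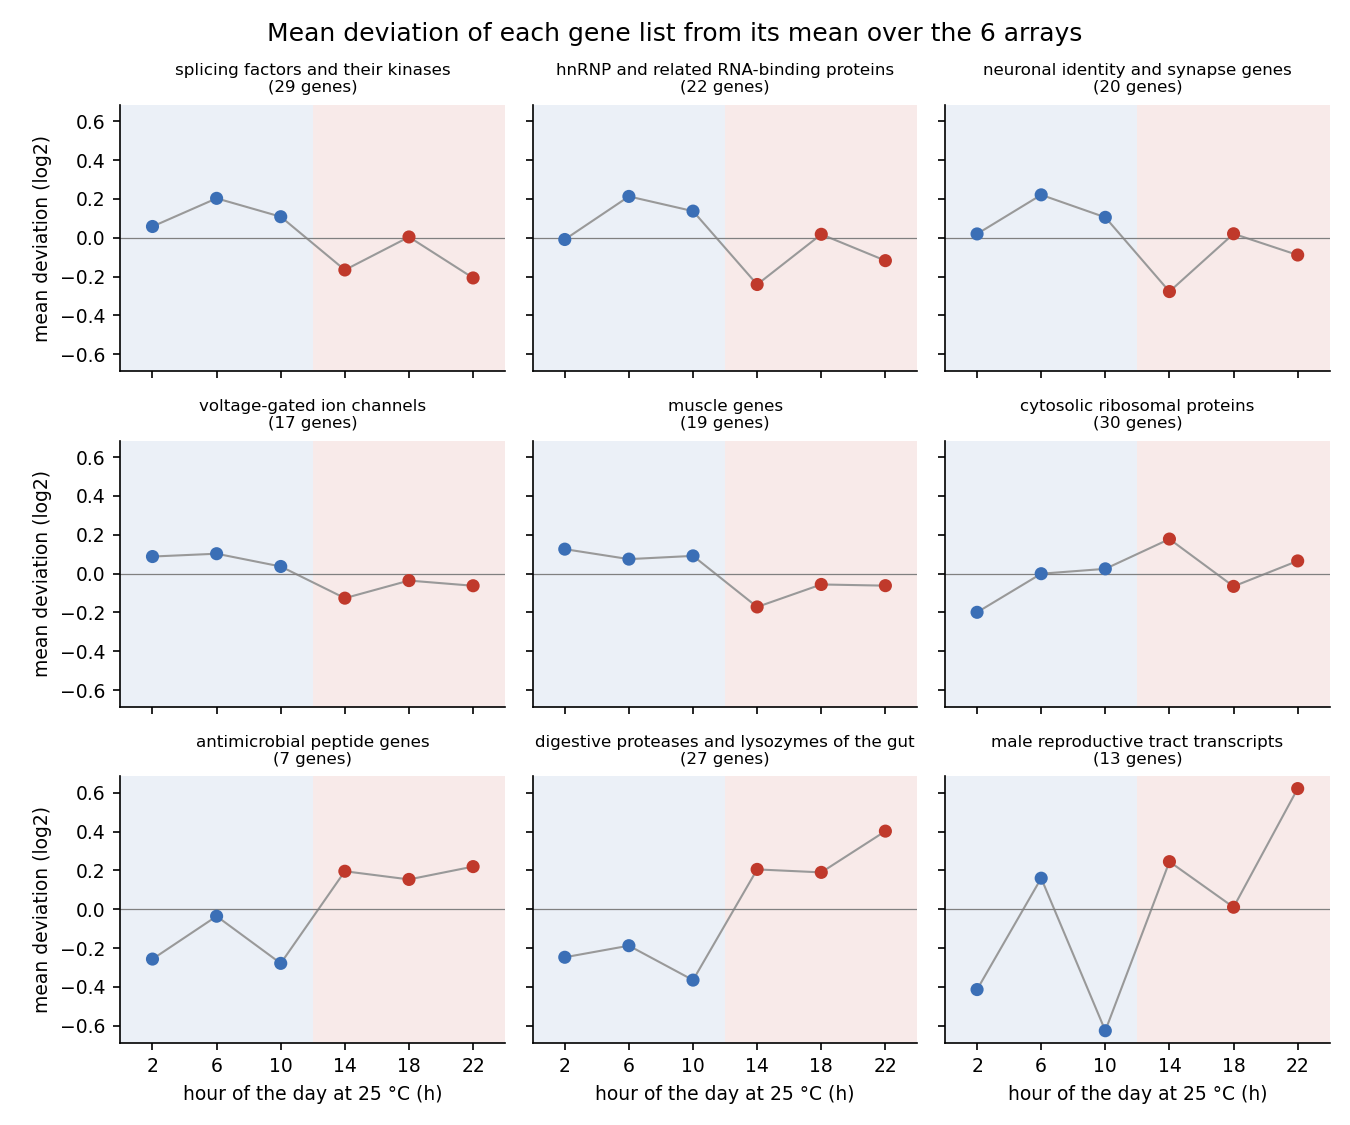
Mean deviation of 9 gene lists from their own mean over the 6 AA arrays (vertical axis, log2) against the hour of the day, with cold hours in blue and warm hours in red. The splicing, ion channel and muscle lists lie lower in every warm hour than in any cold hour, the antimicrobial and gut lists lie higher, and the other 4 overlap, with AA18 within the cold-hour range for hnRNP, neuronal and ribosomal genes and AA6 above AA18 for male transcripts.

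Nucleolar genes did not lean as a list (8 of 12 lower, median -0.042), but held a pair of the larger differences. *Fib*, which encodes fibrillarin, the methyltransferase of ribosomal RNA, read 7.27, 7.52 and 7.18 in the cold hours and 6.66, 6.73 and 6.94 in the warm hours, a change of -0.55 (SE 0.14). *Nopp140*, a nucleolar phosphoprotein gene, read 4.22, 4.96 and 4.62 and then 3.88, 4.17 and 4.13, a change of -0.54 (SE 0.20). Neither overlapped. With the difference between the 3′ and 5′ probe sets of the eIF-4a control in the model, *Fib* had the smallest adjusted p in limma, 0.159.

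Among genes of neurons, 14 of 20 identity and synapse genes were lower, with a median of -0.099 and 6 at an unadjusted p below 0.05, all of them lower, against 3.53% of all probe sets. Without AA14 the median was -0.043 and without AA18 -0.20. *VGlut*, the vesicular glutamate transporter, gave -0.69 (SE 0.27) from 6.44, 6.89 and 6.21 to 5.27, 6.02 and 6.18, with no overlap. *Vmat*, the vesicular transporter of monoamines, read 8.02, 8.36 and 8.15 and then 7.70, 7.96 and 7.84, also without overlap, a change of -0.34 (SE 0.13). *Nrx-1*, a synaptic adhesion gene, gave -0.39 (SE 0.14) and *CASK*, a scaffold gene, -0.50 (SE 0.20), and both overlapped. The largest change of the list belonged to the synaptic vesicle gene *nSyb*, -0.76 (SE 0.36), where AA18 at 6.86 lay among the cold hours (6.53 to 6.96) while AA14 and AA22 stood at 5.67 and 5.49. Voltage-gated channels were lower for 14 of 17 genes, with a median of -0.14. *Hk*, the beta subunit of the Shaker potassium channel, read 6.58, 7.01 and 6.65 and then 6.04, 6.47 and 5.94, a change of -0.60 (SE 0.25), and its other probe set gave -0.47 (SE 0.14). *Ca-alpha1T*, a calcium channel gene, gave -0.29 (SE 0.12), while its other 2 probe sets gave -0.11 and -0.02. Neuropeptide genes were split at 13 higher and 9 lower (median 0.012), and subunits of the nicotinic acetylcholine receptor at 4 and 3 (0.011). *Pdf*, the peptide of the clock neurons, read 6.39, 6.49 and 6.45 and then 6.67, 6.46 and 6.60, with overlapping groups and a change of 0.13 (SE 0.080). In glia, 7 of 12 genes were lower (median -0.062), with the gap junction gene *Inx2* without overlap at -0.29 (SE 0.11).

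In the eye, phototransduction genes were lower for 17 of 20 members, with a median of -0.12. The phosphatase gene *rdgC*, which acts on rhodopsin, read 4.72, 4.67 and 4.50 in the cold hours and 4.07, 4.22 and 4.50 in the warm hours, a change of -0.37 (SE 0.14). AA22 lay just below AA10. *rdgB*, a phosphatidylinositol transfer protein, gave -0.51 (SE 0.23) with overlap. The channel genes *trp* and *trpl* stood at -0.19 (SE 0.13) and -0.17 (SE 0.10), also with overlap. *retinin*, a protein of the corneal lens, was among the more abundant transcripts at 11.23, 10.97 and 11.16 in the cold hours and 10.51, 10.65 and 10.85 in the warm hours, a change of -0.45 (SE 0.13) without overlap. The other lens gene measured, *Cpr66D*, gave 0.0053 (SE 0.088).

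Muscle genes were lower for 15 of 19 members, with a median of -0.15, and 6 were lower at an unadjusted p below 0.05, against 3.53% of all probe sets. *SERCA*, the calcium pump of the sarcoplasmic reticulum, read 8.72, 8.51 and 8.75 in the cold hours and 8.31, 8.38 and 8.30 in the warm hours, a change of -0.33 (SE 0.091). *Obsc*, a giant protein of the sarcomere, read 7.21, 6.98 and 7.13 and then 6.69, 6.81 and 6.86, a change of -0.32 (SE 0.089). The groups were apart in both, though the other 2 probe sets of *Obsc* gave -0.25 and -0.07. *Prm*, the paramyosin gene, read 7.97, 7.92 and 7.80 against 6.81, 7.68 and 6.77, a change of -0.81 (SE 0.24). *Zasp52*, a protein of the Z-disc, had the largest non-overlapping negative change of any probe set with a single gene symbol: 6.82, 6.87 and 6.57 in the cold hours, 5.02, 6.35 and 5.51 in the warm hours, a change of -1.13 (SE 0.35). Its other 2 probe sets gave -0.85 (SE 0.29) and -0.61 (SE 0.20), also without overlap. In *Prm* and *Zasp52* AA14 and AA22 were far below the cold hours and AA18 was close to them. *Mlc2*, myosin light chain, overlapped at -0.28 (SE 0.15).

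Basement membrane and haemocyte genes were lower for 10 of 12 members, with a median of -0.15. Both genes of type IV collagen were in this direction without overlap. *vkg* read 6.90, 6.86 and 7.01 in the cold hours and 6.56, 6.64 and 6.48 in the warm hours, a change of -0.36 (SE 0.11). *Col4a1* read 6.77, 6.43 and 6.52 and then 6.22, 6.23 and 6.27, a change of -0.33 (SE 0.11). *SPARC*, a collagen-binding matrix protein, gave -0.59 (SE 0.26), but AA18 at 10.13 lay within the cold-hour range of 10.06 to 10.45. *Ppn*, the papilin gene, gave -0.37 (SE 0.13) with overlap, and its other probe set gave -0.05 (SE 0.14). Collagen and *SPARC* are made in fat body and haemocytes, and other fat body transcripts leaned the other way (10 of 14 higher, median 0.093). Among them were *Sodh1* at 0.65 (SE 0.28) and the storage protein gene *Lsp2* at 0.50 (SE 0.28), both with overlap. The other 4 were lower, *Lsd-2* among them at -0.40 (SE 0.28), and the mean score of the fat body list overlapped between the groups. Without AA2 the fat body median was 0.0067 and without AA18 0.17.

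The 10 genes with the smallest unadjusted p in each direction did not overlap between the groups, but a choice by limma p favours such genes. *CG4000* was first among the lower ones, with 8.59, 8.90 and 8.36 in the cold hours and 7.87, 7.87 and 8.01 in the warm hours, a change of -0.70 (SE 0.14, unadjusted p = 0.00025, limma adjusted p = 0.883). *CG9297* read 8.0, 7.99 and 7.93 and then 7.26, 7.62 and 7.19, a change of -0.62 (SE 0.13), with -0.87 (SE 0.28) on its second probe set. *chk*, a monocarboxylate transporter gene of glia, read 4.68, 4.46 and 4.66 and then 3.87, 4.27 and 3.87, a change of -0.60 (SE 0.13). In *CG4000* the cold hours were more spread than the warm hours, and in *CG9297* and *chk* AA18 was the highest warm hour. *retn*, which encodes a DNA-binding protein of the ARID family, read 4.25, 4.47 and 4.48 against 3.92, 3.96 and 3.96, a change of -0.45 (SE 0.10). *Fas1*, a cell adhesion gene, gave -0.63 (SE 0.17). *Kap3*, a kinesin-associated protein, gave -0.48 (SE 0.13), *GV1* -0.44 (SE 0.099) and *CG44838* -0.64 (SE 0.17), whose other probe set gave -0.03 (SE 0.10). *eys*, which encodes a secreted protein of the space between the photoreceptors' rhabdomeres, gave -0.53 (SE 0.14), while its other 2 probe sets gave -0.15 and -0.13 with overlap.

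On the higher side *CG7694* came first. It stood at 3.58, 3.38 and 3.51 in the cold hours and at 3.85, 3.84 and 3.84 in the warm hours, a change of 0.35 (SE 0.071, unadjusted p = 0.000305, limma adjusted p = 0.883). *CG10621* read 4.46, 4.60 and 4.63 and then 5.40, 5.15 and 5.41, a change of 0.76 (SE 0.19). Both kept the 3 arrays of a group close together and the groups apart. *Sgsh*, a lysosomal sulphatase gene, gave 0.30 (SE 0.074) and *Fnta*, a subunit of protein farnesyltransferase, 0.31 (SE 0.083). *APP-BP1*, a subunit of the enzyme that activates NEDD8, read 4.90, 4.85 and 4.93 and then 5.15, 5.11 and 5.12, a change of 0.24 (SE 0.066). *Fcp3C* gave 0.31 (SE 0.083), *term* 0.30 (SE 0.087), with 0.13 (SE 0.080) and overlap on its second probe set, and *Phf7*, a chromatin reader of the male germline, 0.24 (SE 0.070). *Sgsh*, *term* and *Phf7* were all near the filter's floor of 2.93. *CG7694* was weak as well, with a mean level at percentile 17.55 of the tested probe sets.

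**Figure D3:**
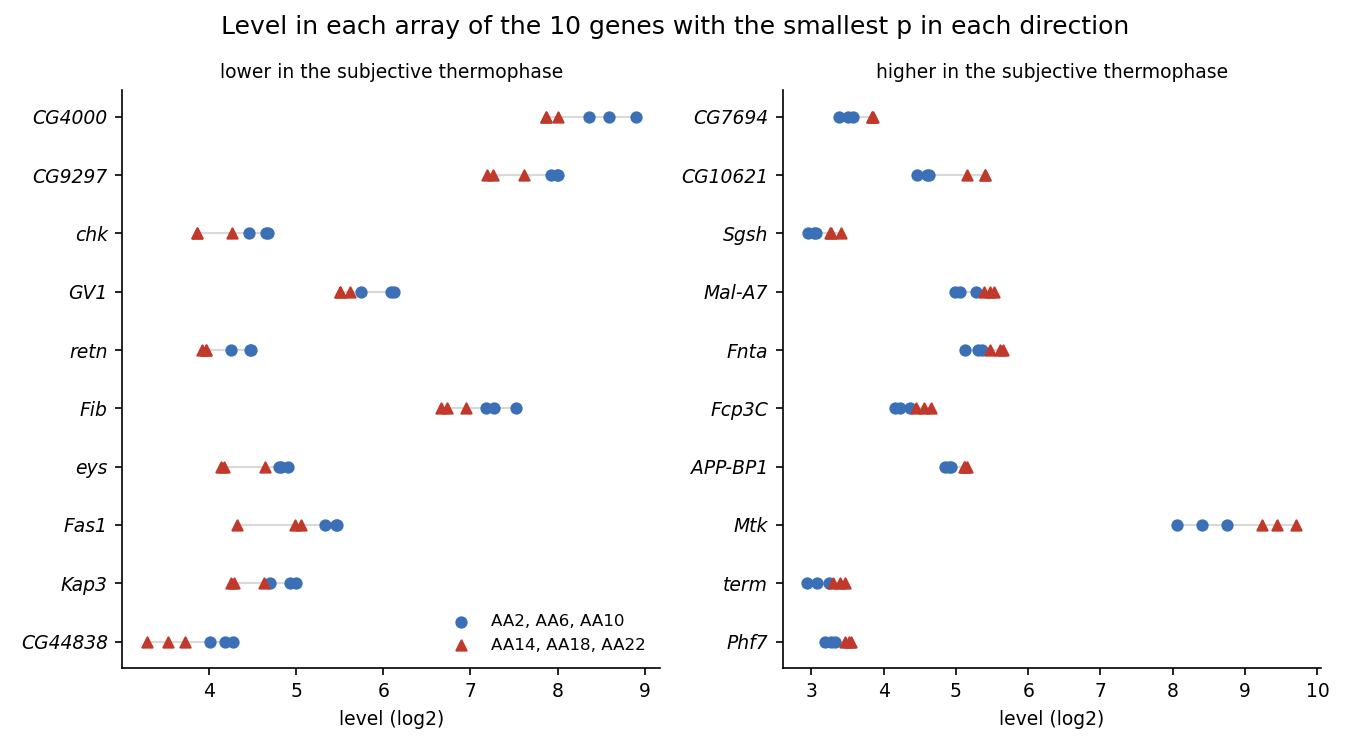
Expression level (horizontal axis, log2) in each AA array of the 10 genes with the smallest p in each direction, lower at left and higher at right, with blue circles for AA2, AA6 and AA10 and red triangles for AA14, AA18 and AA22. The circles and triangles of a gene do not overlap in any of the 20, which the choice by small p favours. *Mtk* has the widest step among the higher ones (1.06).

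Digestive enzymes of the gut had the largest median of any list: 26 of 27 proteases and lysozymes were higher in the subjective thermophase, with a median of 0.38, and 18 lay wholly above, against 4.83% of all probe sets. *betaTry*, a trypsin gene, read 6.41, 7.16 and 6.40 in the cold hours and 8.24, 7.89 and 8.50 in the warm hours, a change of 1.55 (SE 0.63). *alphaTry* read 4.98, 5.95 and 5.48 and then 6.93, 6.48 and 7.30, a change of 1.43 (SE 0.61). *Jon99Fii*, a Jonah protease whose probe set can also read related genes, read 6.04, 6.08 and 5.82 and then 7.35, 7.63 and 7.55, a change of 1.53 (SE 0.60). AA6 was the highest cold hour in each of them, and each cold hour remained below every warm hour. The SEs here come from the spread of all 12 arrays, those of the CA day included. For *Jon99Fii* the standard deviation was 0.14 in each AA group, and 1.25 and 1.27 in the CA cryophase and thermophase. In a fit of the 6 AA arrays alone *Jon99Fii* passed limma with an adjusted p of 0.00575, together with a pair of probe sets that carry several symbols. Lysozyme genes were higher by smaller amounts, such as *LysD* at 0.82 (SE 0.44) and *LysE* at 0.66 (SE 0.38). Without AA10 the list's median was 0.22.

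Transcripts of the male reproductive tract were higher for 13 of 13 genes, with a median of 0.31. *Mst57Da*, which encodes an accessory gland peptide, read 4.92, 6.83 and 4.93 in the cold hours and 7.46, 6.94 and 7.95 in the warm hours, a change of 1.89 (SE 0.91). AA2 and AA10 lay far below the other 4 arrays, and AA6 was just below AA18. *EbpII*, an ejaculatory bulb gene, also had AA2 and AA10 lowest, with 3.94, 6.06 and 3.36 against 5.82, 5.13 and 6.94. Its groups overlapped, with a change of 1.51 (SE 1.11). The testis transcript *Mst84Da* read 4.86, 5.23 and 4.41 and then 5.32, 5.34 and 6.01, a change of 0.72 (SE 0.31). *Cyp4g1*, the oenocyte cytochrome P450 that makes cuticular hydrocarbons, had its lowest values in the same 2 arrays, with 4.54, 8.14 and 4.80 against 8.38, 8.03 and 9.42, and its change of 2.78 (SE 1.38) was the largest of any probe set with a single symbol. Of the 24 probe sets that differed by more than 1, 20 were higher. Of these 20, 15 carried a single symbol, among them 6 of the gut proteases, *Mst57Da*, *EbpII*, a further ejaculatory bulb gene, *Ebp* (1.61, SE 0.98), and *Cyp4g1*. Female transcripts did not share the lean: 8 of 15 were higher, and the yolk protein genes *Yp1*, *Yp2* and *Yp3* gave -0.04, 0.10 and 0.05.

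The mean score of the gut and male lists, called the body score here, was -0.38, -0.061 and -0.54 in AA2, AA6 and AA10 and 0.18, 0.053 and 0.46 in AA14, AA18 and AA22, without overlap. The gut list also leaned higher in the thermophase of the CA day (26 of 27, median 0.48), as did the male list (12 of 13, median 0.29). On that day, however, the scores of both lists overlapped between the phases. The body score was 0.41, -0.50 and -0.49 in CA2, CA6 and CA10 and 0.42, -0.42 and 0.86 in CA14, CA18 and CA22. It thus differed from array to array within each phase. The amount of body tissue in the head preparations and a change within the gut or the reproductive tract cannot be told apart in these arrays, nor can fewer cells of a type and less RNA per cell. The part of the body score in the other results was not tested, but the score was put in the model as a covariate. With it 297 probe sets had an unadjusted p below 0.05, of which 188 were among the 600 without it, and the medians of splicing factors and muscle genes were -0.21 and -0.18. The median of phototransduction genes was then -0.0395, that of voltage-gated channels -0.0968, that of gut enzymes 0.0142 and that of ribosomal proteins 0.12.

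Antimicrobial peptide genes, targets of the Toll and Imd immune pathways, were higher for 7 of 7 measured members, with a median of 0.23. *Mtk*, the metchnikowin gene, read 8.06, 8.75 and 8.41 in the cold hours and 9.45, 9.71 and 9.23 in the warm hours, a change of 1.06 (SE 0.29). *DptB*, a diptericin gene, read 6.62, 6.98 and 6.82 and then 7.40, 8.01 and 7.29, a change of 0.76 (SE 0.26). Both were apart between the groups with AA18 highest, while the score of the whole list was highest in AA22 (0.22) and lowest among the warm hours in AA18 (0.15), as was the gut score. *Drs*, the drosomycin gene, overlapped at 0.23 (SE 0.25), *Def* at 0.38 (SE 0.22), and *CecB* at 0.07 (SE 0.12). The list's median was 0.083 without AA10, 0.35 without AA6 and 0.10 with the body score in the model.

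Amylases and maltases, which digest starch and sugars, were higher for 10 of 12 genes, with a median of 0.15. *Mal-A1* read 5.14, 5.21 and 5.01 in the cold hours and 5.88, 5.45 and 5.67 in the warm hours, a change of 0.54 (SE 0.21). *Mal-A7* read 5.06, 5.27 and 4.99 and then 5.47, 5.38 and 5.53, a change of 0.35 (SE 0.093). *Mal-A3* and the alpha-glucosidase gene *tobi* gave 0.19 (SE 0.076) and 0.17 (SE 0.078), and all 4 kept the groups apart. On the CA day the list's median was 0.043, with 8 of 12 higher.

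Some lists of genes for making, folding and degrading proteins leaned higher by small amounts. Among cytosolic ribosomal proteins 24 of 30 were higher, with a median of 0.17 against -0.078 on the CA day. *RpL32* read 10.81, 11.03 and 11.00 in the cold hours and 11.25, 11.06 and 11.29 in the warm hours, a change of 0.25 (SE 0.11), with AA18 just above AA6. The members with the lowest values were the stalk proteins *RpLP2* (-0.41, SE 0.21) and *RpLP1* (-0.34, SE 0.18), which overlapped. The list's score was lowest in AA2 (-0.20), and its median was 0.060 without that array. The difference between the 3′ and 5′ probe sets of the eIF-4a control, which can vary with RNA integrity and labelling, overlapped between the groups. It was 0.956, 2.40 and 1.54 in the cold hours and 2.39, 1.48 and 3.08 in the warm hours. For the GAPDH control it was 2.09, 2.40 and 2.26 and then 2.57, 2.78 and 2.32. For the actin control it was 1.20, 1.64 and 1.46 and then 1.79, 1.17 and 1.25. These controls ordered the arrays differently, with AA18 low for eIF-4a and highest for GAPDH. Of them, only the eIF-4a measure was put in the model. The *eIF4A* transcript itself read 11.63, 10.97 and 11.53 in the cold hours and 10.96, 11.45 and 10.72 in the warm hours. It was highest in AA2, AA10 and AA18, where the eIF-4a difference was lowest. How far that difference follows the level of *eIF4A* was not tested. With the eIF-4a measure in the model the ribosomal median was 0.062, the splicing median -0.21 and the muscle median -0.17. Genes of folding in the endoplasmic reticulum were higher for 13 of 16 (median 0.12, or 0.054 without AA14 and 0.19 without AA10), including *Sec63* at 0.19 (SE 0.081) and *ERp60* at 0.23 (SE 0.10), and *Sec61beta* stood at -0.35 (SE 0.18). Proteasome subunits were higher for 25 of 34 (median 0.064), with *Prosalpha5* at 0.34 (SE 0.14) and *Prosalpha4* at 0.20 (SE 0.087), but their median was 0.0026 without AA14. Mitochondrial ribosomal proteins (37 of 63 higher, median 0.022) and translation factors (20 of 37 higher, 0.029) lay near the median of all genes.

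Energy metabolism showed no common direction. Respiratory chain and ATP synthase genes were higher for 40 of 62, with a median of 0.039. At an unadjusted p below 0.05, 3 of the 62 were lower and 0 higher, a share near the 3.53% lower over all probe sets. *ATPsynB*, a subunit of ATP synthase, read 9.88, 10.16 and 9.82 in the cold hours and 9.42, 9.68 and 9.58 in the warm hours, a change of -0.39 (SE 0.13). *COX5A*, of cytochrome c oxidase, gave -0.40 (SE 0.14), and *ND-B17*, of complex I, -0.33 (SE 0.15), the latter with overlap. Glycolysis enzymes were lower for 6 of 9 (median -0.18). *Pfk*, phosphofructokinase, read 7.83, 7.40 and 7.57 and then 6.99, 7.42 and 6.93, a change of -0.49 (SE 0.19). *Pgk* and *Gapdh1* overlapped widely at -0.39 (SE 0.41) and -0.36 (SE 0.25). The glycolysis median was -0.0032 without AA22, -0.37 without AA6 and 0.088 with the eIF-4a measure in the model, so its direction was not stable.

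The remaining lists lay close to the median of all genes. Chaperones and heat shock proteins were 12 higher and 14 lower (median -0.0073), against 21 of 26 higher and a median of 0.21 between 18 °C and 25 °C on the CA day. *Hsc70-4*, the constitutive cytosolic chaperone, had the largest change among them, -0.58 (SE 0.27) with overlap, while the Hsp90 co-chaperone gene *Stip1* stood at 0.04 (SE 0.13) and *DnaJ-1* at 0.0030 (SE 0.13). Cuticle proteins had a median of 0.032 (55 of 83 higher), and *Cpr72Ec*, the largest change, was -0.68 (SE 0.30) with overlap. Cytochrome P450 enzymes had a median of 0.032 (40 of 68 higher), glutathione and UDP-glycosyl transferases 0.040 (36 of 52), odorant-binding proteins 0.066 (16 of 26) and the takeout family -0.026 (6 of 14).

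Core clock genes overlapped between the groups without exception. Of 12 measured, 5 were higher and 7 lower, and 0 had an unadjusted limma p below 0.05. *tim* read 6.32, 6.24 and 6.64 in AA2, AA6 and AA10 and 6.58, 6.59 and 6.40 in AA14, AA18 and AA22 on its stronger probe set, a change of 0.12 (SE 0.18), and a second probe set gave -0.08 (SE 0.33) with a different order of hours. *per* read 5.81, 5.75 and 5.71 and then 5.71, 5.86 and 5.48, a change of -0.07 (SE 0.19). *vri* read 6.94, 6.81 and 7.17 and then 7.14, 7.04 and 7.01, with its lowest value at AA6 and its highest at AA10. *Clk*, whose product activates the loop, had the widest range among the stronger probe sets: 4.31, 4.77 and 4.78 in the cold hours and 3.93, 4.08 and 4.96 in the warm hours, a change of -0.30 (SE 0.27). Its lowest values lay at AA14 and AA18 and its highest at AA22, inside the same group of 3. *Pdp1* gave -0.11 (SE 0.11), *cry* -0.03 (SE 0.14), *cyc* 0.03 (SE 0.086) and *dco*, the doubletime kinase gene, -0.21 (SE 0.14). A comparison of 3 hours with 3 hours does not register a transcript whose peak or trough falls at the border between the groups. Whether this applies to the clock genes here was not tested.

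**Figure D4:**
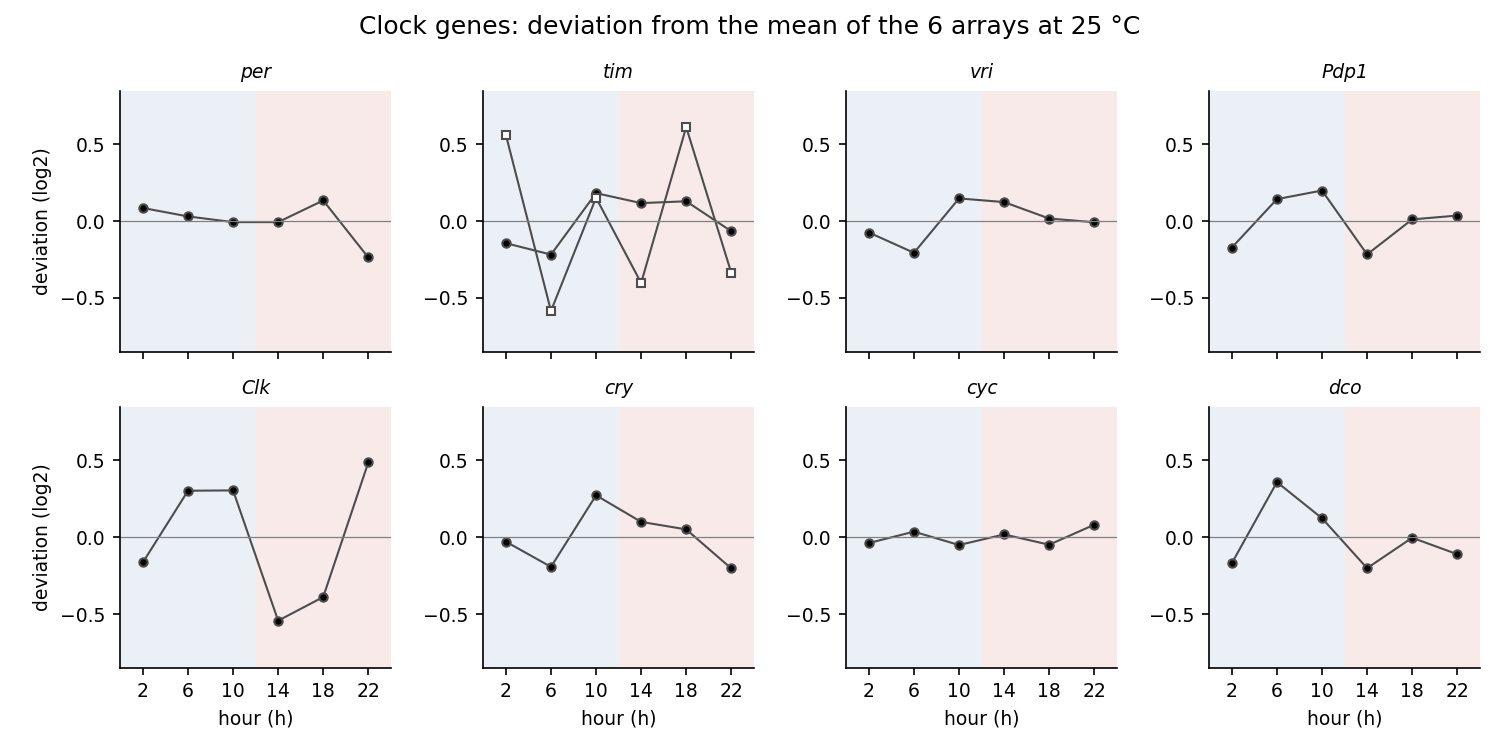
Deviation of 8 clock genes from their mean over the 6 AA arrays (vertical axis, log2) against the hour of the day, with cold hours on blue and warm hours on red, and both probe sets of *tim* (filled circles for the first, open squares for the second). Every gene overlaps between the phases, and *Clk* swings from 3.93 at AA14 to 4.96 at AA22.

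Transcripts at an unadjusted p below 0.05 that were lower in the subjective thermophase came from longer genes than the higher ones. The median genomic span over the 9896 tested probe sets with a length was 2927 bp, against 10399 bp for these lower ones and 1782 bp for the higher ones. With the genes in 5 bins of equal size by length, the median change in the shortest bin was 0.055, with 2.88% higher and 0.657% lower at that p-value. In the longest bin it was -0.068, with 0.707% higher and 8.49% lower. The bins in between gave 0.037, 0.018 and -0.028, so each bin lay below the next shorter one. Within the longest bin the median deviation was 0.086 in AA2, 0.010 in AA6 and 0.020 in AA10, and -0.089 in AA14, 0.039 in AA18 and -0.043 in AA22, so AA18 again lay with the cold hours. The longest bin had a median below 0 without any of the AA arrays (-0.0995 to -0.046), and it was -0.024 with the eIF-4a measure in the model. With the body score in the model the median was -0.032 in the longest bin and 0.027 in the shortest. On the CA day the medians of the bins lay between -0.012 and 0.012. Lists of long genes were among those that leaned lower, such as ion channels (median span 49105 bp), neuronal genes (31756 bp) and hnRNP genes (13832 bp), but splicing factors were of ordinary length (2972 bp), and nicotinic receptor subunits (21373 bp) had a median change of 0.011. Ribosomal proteins (1109 bp), gut enzymes (880 bp) and male transcripts (479 bp) were short. The part of gene length in the list medians was not tested.

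**Figure D5:**
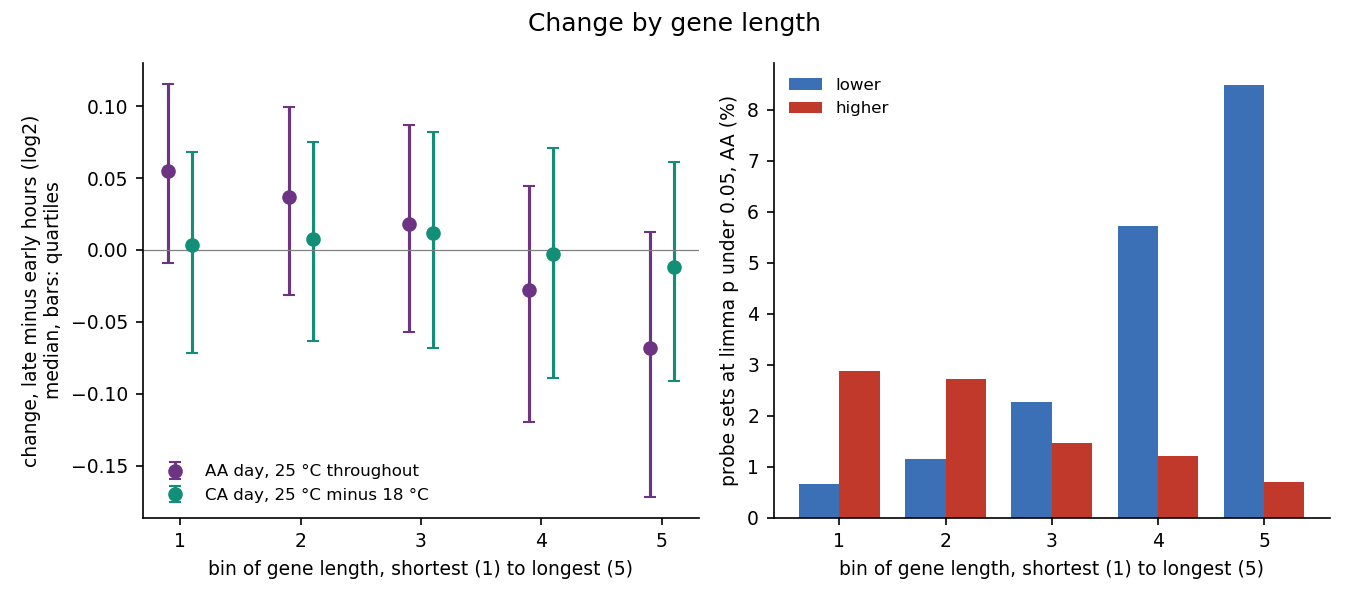
Left, median change (vertical axis, log2) in each of 5 bins of gene length with bars for the quartiles, for the AA day in purple and the CA day in green; right, percent of probe sets in each bin at an unadjusted limma p below 0.05 on the AA day, lower in blue and higher in red. The AA median goes from 0.055 in the shortest bin to -0.068 in the longest, and the percent lower from 0.657 to 8.49.

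The difference between the phase change on the AA day and that on the CA day was tested in the same model, and the 2 changes share no arrays. Without a block, limma called 0 of 11137 probe sets at an adjusted p below 0.05 (0%), and 355 had an unadjusted p below 0.05 (3.19%). That count was 213 without CA14 and 1034 without AA18. With the hour of the day as a block, an alternative added after the data were seen, 1051 had an unadjusted p below 0.05, 334 of them among the 355, and 1 passed in limma. This was *CG13315*, named after its values were seen. It read 10.14, 10.69 and 10.86 at CA2, CA6 and CA10 and 9.39, 8.75 and 9.48 at CA14, CA18 and CA22, and on the AA day 8.90, 9.64 and 9.48 and then 9.53, 9.26 and 9.95. Its difference between the days was 1.60 (SE 0.14, limma adjusted p = 0.00615 with the block and 0.997 without it), with the phases apart on the CA day and overlapping on the AA day. The changes of the 2 days correlated at 0.27 over the 11137 probe sets, which are not independent of each other. Of the 207 higher on the AA day, 61.8% were also higher in the CA thermophase, and of the 393 lower, 36.9% were higher there, against 50.1% of all tested. *CG7694* gave 0.35 at constant temperature and -0.12 in the thermocycle, *CG10621* 0.76 and -0.28, and *CG9297* -0.62 and 0.15. These 3 were named for their small p on the AA day, so no test of their difference is given. Muscle genes had 6 of 19 at an unadjusted p below 0.05 for the difference and chaperones 6 of 26, against the 3.19% of all probe sets. For *Mtk* (1.06 and 0.45) and *retinin* (-0.45 and -0.30) the 2 days were in the same direction, but on the CA day the groups of both overlapped. There *Mtk* stood above the cryophase range of 8.50 to 8.87 only in CA22 (9.96).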

How the data were processed

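RNA of heads from frozen flies was made into biotinylated cRNA for Affymetrix Drosophila Genome 1 arrays. The authors summarised each array by RMA and deposited the result on the log2 scale, by an RMA version not given in the sources used here. No further normalization was applied. Of 14010 probe sets 44 controls were left out, and probe sets with more than 6 of 12 values above 2.93 (the 20th percentile) were tested. The number of arrays limits the precision. A limma model (version 3.58.1, R 4.3.3) held 4 groups of 3 arrays (8 residual and 4.24 prior degrees of freedom), with two-sided tests and Benjamini-Hochberg adjustment over all 11137 probe sets. The sources do not say whether different hours were separate cultures, so p-values measure only the spread between these arrays. Probe annotation gave 12443 probe sets a single gene symbol, 327 several and 1196 none. RefSeq genes (Release 6 plus ISO1 MT) updated the names of 12394 and gave gene spans.

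The comparison and the gene lists were chosen with earlier results of these data known, so lists carry no test. In a list each gene enters through its probe set with the highest mean. Some entries were removed after values had been seen because they were other genes than the list's name says. Named genes were the 10 with the smallest p in each direction, the 5 largest non-overlapping changes in each direction, 8 clock genes and up to 4 members of each list with the smallest p. Other genes named with a list, and the probe sets beyond 1, were chosen after their values were seen. Alternatives covered the filter, normalization, variance model, array weights, the arrays in the fit, covariates, leaving out each array and, added after the data were seen, the hour as a block for the difference between the days. The fit was tested on simulated data. Tables were handled with pandas 2.3.3 and numpy 2.4.6 under Python 3.11.15, and plots with matplotlib 3.10.9.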

Additional observations from a re-analysis of the deposited data

How the results depend on the processing

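With 3 hours a side the number of arrays limits the precision. No paired analysis was possible for the phase change because each hour lies in 1 phase and the labels give no replicate numbers. At an adjusted p of 0.05 the count of probe sets called by limma stayed at 0 under each alternative except a fit of the 6 AA arrays alone, which called 3, *Jon99Fii* (1.53, adjusted p = 0.00575) among them. At an adjusted p of 0.2 that fit called 6, the fit with the eIF-4a measure 1, and the fits without 1 array from 0 to 12, the 12 without AA18. The 600 at an unadjusted p below 0.05 became 1225 with array weights (474 higher and 751 lower, 562 shared), 297 with the body score (151 lower), and 255 to 1219 without 1 AA array (117 to 408 higher, 138 to 811 lower), lowest without AA14 and highest without AA18. With the eIF-4a measure 361 were higher. For the difference between the days, the 355 became 1610 with array weights and 213 to 1034 without 1 array. With the hour as a block, added after the data were seen, it became 1051, and the count at an adjusted p of 0.05 went from 0 to 1.

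Of the list medians, the body score moved gut enzymes to 0.0142, antimicrobial peptides to 0.0999, phototransduction to -0.0395 and voltage-gated channels to -0.0968. It is made from the gut and male lists, so it bears on their values by construction. The eIF-4a measure moved antimicrobial peptides to 0.1054, basement membrane to -0.2258, gut enzymes to 0.1979, glycolysis to 0.0882 and the respiratory chain to -0.0549. Array weights moved antimicrobial peptides to 0.3317 and basement membrane to -0.2209. With all probe sets the lens median was 0.0053. Without 1 AA array the medians ran from 0.0825 to 0.3535 for antimicrobial peptides, -0.2369 to -0.1002 for basement membrane, 0.2235 to 0.4223 for gut enzymes, 0.0067 to 0.171 for fat body, -0.2045 to -0.125 for muscle, -0.0362 to 0.0444 for neuropeptides, 0.0026 to 0.155 for the proteasome, -0.0607 to 0.0732 for translation factors and -0.1363 to -0.0867 for channels. The cause was not tested.

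Some named genes turned sign. *Pgk* (-0.39) and *eIF4A* (-0.33) were the largest of these changes, and the other genes lay nearer to 0. With the body score *Pgk* became 0.0628, *cry* 0.0978, *cyc* -0.0476, *eIF4A* 0.0111, *nAChRbeta3* 0.0459, *per* 0.1369 and the second *tim* probe set 0.2187. With the eIF-4a measure *Pgk* became 0.1727, *cry* 0.0819, *cyc* -0.0299, *nAChRbeta3* 0.0657, *per* 0.1118 and the second *tim* probe set 0.3382. Without 1 AA array, values ran from -0.1393 to 0.0937 for *cry*, -0.158 to 0.0275 for *per*, -0.4118 to 0.1742 for the second *tim* probe set, -0.2283 to 0.0282 for *slmb*, -0.058 to 0.054 for *Cpr66D*, -0.0133 to 0.2232 for *nAChRalpha2*, -0.0808 to 0.0102 for *nAChRalpha7* and -0.3017 to 0.0558 for *nAChRbeta3*.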
